A study of Mus musculus with 16 samples.

Results

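A set of 10 transcription factors and chromatin regulators of the pluripotent state were followed through the peak lists, namely Pou5f1, Nanog, Sox2, Klf2, Klf4, Esrrb, Zfp42, Dppa3, Prdm14 and Tfcp2l1. They were chosen by name, as 10 of the 22232 protein-coding genes of the GENCODE M1 annotation of mm9. The rule used no peak, but the choice was made with earlier results of these data known. For each gene promoter peaks were counted, meaning those centred at most 2500 bp from any annotated start of a coding transcript, together with the peaks that touched the gene body. The question was whether Polycomb marks are listed at these genes once ES cells have turned into neural precursors, and whether they are still listed when PCGF5 is depleted.

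The study held 16 ChIP-seq libraries, 1 in each group, of 46C mouse ES cells, a line with a green fluorescent reporter in the Sox1 gene, and of neural precursor cells (NPC) derived from them. H2AK119ub1 and H3K27me3 were profiled in wild type and in PCGF5-depleted ES and NPC, and Flag-PCGF5 in wild type labelled ES and NPC whose Pcgf5 gene carried a 3xFlag tag. The remaining 6 libraries were inputs and were not analysed here. The ES cells were grown in serum with LIF and the 2i inhibitors on mitomycin-treated embryonic fibroblasts, and the NPC were unsorted cells at day 6 of differentiation in suspension. The depleted genotype is spelled shPCGF5 in the labels. The methods describe a lentiviral short hairpin for such a line and also a nuclease knockout elsewhere in the study, so the cells are named here as the labels spell them. Hairpin lines were grown from clones picked after selection.

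With 1 library in each group there is no replicate spread, and no difference below carries a test. Read totals are not given in the lists, and the depth behind them is unknown. The lack of a peak means only that none was listed. A library of many cells cannot tell fewer cells that carry a mark from less of the mark in each cell. A smaller share of differentiated cells in shPCGF5 NPC thus cannot be told apart from a change of the mark at a gene. The paper reports such a smaller share, by the Sox1 reporter, for PCGF5-deficient cells of the reporter line.

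PCGF5 is a subunit of a variant Polycomb repressive complex 1 (PRC1), whose RING1 enzymes place ubiquitin on a lysine of histone H2A, the mark H2AK119ub1. H3K27me3 is placed by Polycomb repressive complex 2 (PRC2), and the marks are often found together over CpG-rich promoters of silent developmental regulators. Pou5f1, Nanog and Sox2 form the core of the pluripotency network. Klf2, Klf4, Esrrb, Tfcp2l1, Zfp42, Dppa3 and Prdm14 belong to or mark the naive state that LIF and the 2i inhibitors sustain, and they are switched off as ES cells leave it. Sox2 is the exception, since neural precursors go on using it.

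The stretches below show the DNA under the marks at the 6 genes with an H3K27me3 promoter peak in wild type NPC, and for contrast the 250 bases before the first start site of 2 genes that had none. They were read from the mm9 assembly on the strand of the gene, from 5′ to 3′, and capitals mark each CG dinucleotide, since the stretches differ in CG density. The Prdm14 line (chr1:13117745-13118029, minus strand, before the start site) and the Klf2 line (chr8:74843816-74843987, plus strand, coding exon) are whole H2AK119ub1 peaks of wild type NPC. The Esrrb line (chr12:87763413-87763624, plus strand, intron) is the H2AK119ub1 peak of wild type ES. The Zfp42 line (chr8:44392562-44392814, minus strand, before the start site) is a whole H3K27me3 peak of wild type NPC. The Klf4 line (chr4:55546176-55546475, minus strand, before the start site) and the Tfcp2l1 line (chr1:120524692-120524991, plus strand, first coding exon and intron) are the middle of such peaks. The Sox2 line is chr3:34548677-34548926 and the Nanog line chr6:122657257-122657506, both on the plus strand.
Prdm14: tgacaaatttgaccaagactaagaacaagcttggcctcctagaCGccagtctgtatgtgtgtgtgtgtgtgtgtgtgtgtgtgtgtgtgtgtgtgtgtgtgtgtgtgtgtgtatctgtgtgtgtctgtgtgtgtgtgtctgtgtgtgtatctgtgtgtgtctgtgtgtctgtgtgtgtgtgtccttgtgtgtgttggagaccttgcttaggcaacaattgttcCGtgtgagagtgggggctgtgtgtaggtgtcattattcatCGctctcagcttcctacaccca
Zfp42: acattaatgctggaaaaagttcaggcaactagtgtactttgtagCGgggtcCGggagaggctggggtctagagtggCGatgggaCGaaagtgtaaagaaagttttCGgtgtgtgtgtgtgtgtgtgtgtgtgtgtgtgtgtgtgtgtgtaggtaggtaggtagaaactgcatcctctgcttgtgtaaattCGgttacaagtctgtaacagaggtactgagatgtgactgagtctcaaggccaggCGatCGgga
Klf4: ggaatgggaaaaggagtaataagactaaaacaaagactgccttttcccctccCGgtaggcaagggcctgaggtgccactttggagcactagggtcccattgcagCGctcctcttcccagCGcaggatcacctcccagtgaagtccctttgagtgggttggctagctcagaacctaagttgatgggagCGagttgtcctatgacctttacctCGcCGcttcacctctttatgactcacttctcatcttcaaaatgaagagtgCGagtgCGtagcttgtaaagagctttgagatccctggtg
Esrrb: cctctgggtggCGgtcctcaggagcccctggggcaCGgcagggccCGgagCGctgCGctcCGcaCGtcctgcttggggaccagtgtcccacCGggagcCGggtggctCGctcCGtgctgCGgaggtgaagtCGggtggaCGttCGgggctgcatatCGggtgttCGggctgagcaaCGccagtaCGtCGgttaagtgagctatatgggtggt
Klf2: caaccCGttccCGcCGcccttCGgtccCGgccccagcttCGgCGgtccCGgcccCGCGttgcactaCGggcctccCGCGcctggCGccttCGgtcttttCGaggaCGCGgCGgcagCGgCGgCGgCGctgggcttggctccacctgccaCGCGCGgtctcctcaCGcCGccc
Tfcp2l1: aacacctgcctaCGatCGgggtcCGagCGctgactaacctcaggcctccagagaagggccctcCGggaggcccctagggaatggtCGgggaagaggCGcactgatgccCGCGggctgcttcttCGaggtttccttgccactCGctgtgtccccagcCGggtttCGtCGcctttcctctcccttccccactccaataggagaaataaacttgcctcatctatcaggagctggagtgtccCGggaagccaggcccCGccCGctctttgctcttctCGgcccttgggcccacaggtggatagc
Sox2: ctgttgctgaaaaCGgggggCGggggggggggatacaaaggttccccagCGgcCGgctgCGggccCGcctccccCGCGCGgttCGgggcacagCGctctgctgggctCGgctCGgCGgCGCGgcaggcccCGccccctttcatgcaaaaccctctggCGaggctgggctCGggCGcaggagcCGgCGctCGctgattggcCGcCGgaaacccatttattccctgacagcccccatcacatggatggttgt
Nanog: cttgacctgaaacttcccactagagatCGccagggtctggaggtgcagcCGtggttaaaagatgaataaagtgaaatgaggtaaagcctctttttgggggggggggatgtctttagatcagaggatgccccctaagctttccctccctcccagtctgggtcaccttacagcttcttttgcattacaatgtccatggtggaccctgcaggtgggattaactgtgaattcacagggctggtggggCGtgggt

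The Klf2 stretch holds 28 CG in 172 bases and the Esrrb stretch 20 in 212. The Sox2 stretch, of a gene without a promoter peak, holds 25 in 250. The Prdm14 stretch holds 3 CG in 285 bases, and the Nanog stretch 3 in 250. The Prdm14 and Zfp42 stretches are instead marked by a run of alternating t and g, which is 57 bases long without a break in Prdm14 and 42 bases long in Zfp42.

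H3K27me3 was listed at the promoters of 6 of the 10 genes in wild type NPC, against 1 in wild type ES. In NPC these were Klf2, Klf4, Esrrb, Zfp42, Prdm14 and Tfcp2l1, and the share of all protein-coding genes with such a peak was 15.7%. The only one in wild type ES was Esrrb, where 13.4% of all genes had a peak. In shPCGF5 ES it was again Esrrb alone (12.9% of all genes), and in shPCGF5 NPC 4 genes were left, Klf2, Klf4, Esrrb and Prdm14 (15.4% of all genes). The genes thus lay near or under the background in both ES lists and above it in both NPC lists.

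H2AK119ub1 was listed at the promoters of 4 of the 10 genes in wild type NPC, which were Klf2, Klf4, Esrrb and Prdm14, where 4.98% of all genes had such a peak. Klf2, Esrrb and Prdm14 were also in the shPCGF5 NPC list (3 genes, with 4.17% of all genes). In wild type ES the mark was at Esrrb alone (6.69% of all genes), and in shPCGF5 ES at Dppa3 alone (5.96% of all genes). All 4 genes with H2AK119ub1 in wild type NPC also had H3K27me3 there, a pairing found at 4.73% of all genes, and the 3 in shPCGF5 NPC did so too (3.86% of all genes).

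**Figure D1:**
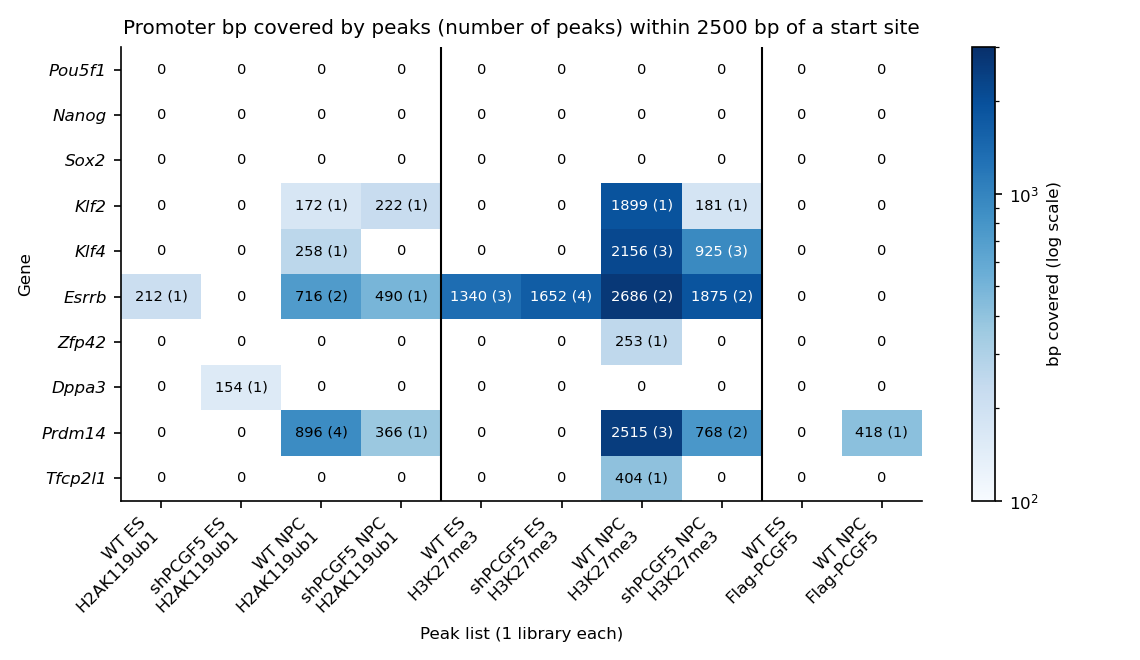
Base pairs of the promoter windows covered by peaks (colour on a log scale, and printed in each cell with the number of peaks in brackets) for the 10 genes (rows) in the 10 peak lists (columns, 1 library each). The H3K27me3 column of wild type NPC is filled at 6 genes, from 253 bp at Zfp42 to 2686 bp at Esrrb, while Pou5f1, Nanog and Sox2 are at 0 in every list.

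The H3K27me3 gained between the wild type stages was at 5 genes, Klf2, Klf4, Zfp42, Prdm14 and Tfcp2l1, and 6.08% of all genes had a promoter peak in wild type NPC and not in wild type ES. None of the 5 had one in either ES list, a pattern of 4.63% of all genes. Only Esrrb had H3K27me3 in wild type ES and could lose it, and it kept the mark in wild type NPC. Over all genes 847 of the 2976 marked in wild type ES lost it (3.81% of all genes). In the depleted cells 3 genes, Klf2, Klf4 and Prdm14, had a peak in NPC and not in ES (5.60% of all genes). H2AK119ub1 was gained between the wild type stages at Klf2, Klf4 and Prdm14 (2.51% of all genes), all 3 without a peak in either ES list (1.77% of all genes). It was lost at none (4.22% of all genes), but here too only Esrrb had it in wild type ES and could lose it. From shPCGF5 ES to shPCGF5 NPC it was gained at Klf2, Esrrb and Prdm14 (1.74% of all genes).

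Between the NPC genotypes 2 genes, Zfp42 and Tfcp2l1, had an H3K27me3 promoter peak in wild type and none in shPCGF5 cells, against 3.74% of all genes. Both had it in the wild type NPC list alone of the 4 lists of this mark, as did 2.56% of all genes. The opposite, a peak in shPCGF5 NPC and none in wild type NPC, was found at 0 of the 10 genes and at 3.54% of all genes. For H2AK119ub1 1 gene, Klf4, had a peak in wild type NPC and not in shPCGF5 NPC (2.46% of all genes), and it was the only one with that mark in wild type NPC alone of the 4 lists (1.38% of all genes). The opposite was again found at 0 of the 10 genes (1.65% of all genes). Of the 5 genes with gained H3K27me3, 3 were thus still marked in shPCGF5 NPC, and of the 3 genes with gained H2AK119ub1, 2 were. Of all 1029 genes with H3K27me3 in wild type NPC and in neither ES list, 55.4% had no peak in shPCGF5 NPC. For H2AK119ub1 it was 77.9% of 393 such genes.

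**Figure D2:**
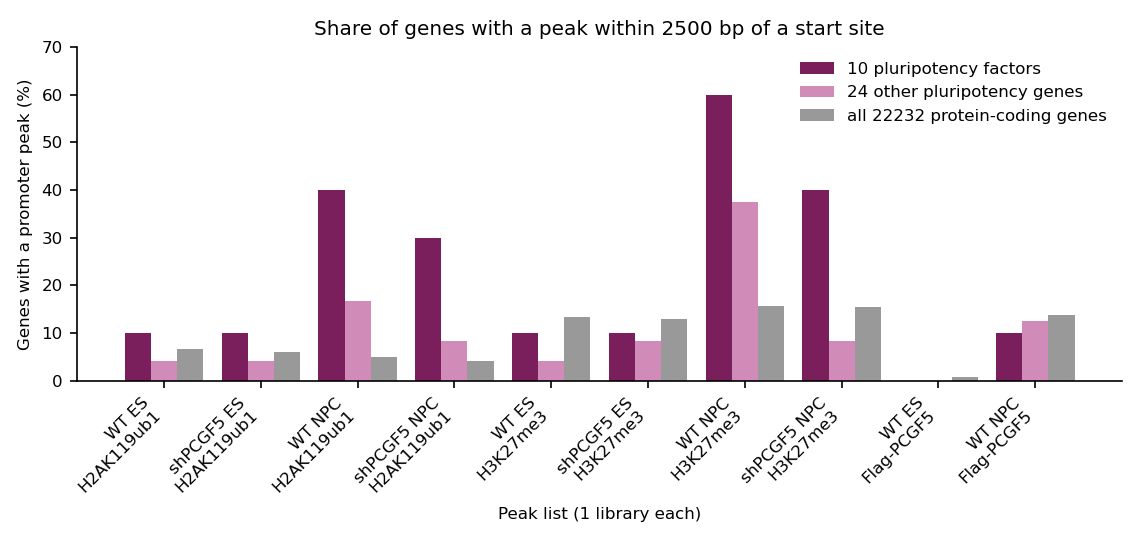
Percent of genes with a promoter peak (y axis) in each peak list (x axis, 1 library each) for the 10 pluripotency factors, 24 other pluripotency genes and all 22232 protein-coding genes. The 10 factors reach 60.0% for H3K27me3 in wild type NPC, against 15.7% of all genes, and 10.0% in both ES lists of that mark.

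Where H3K27me3 stayed, less of the promoter was covered in shPCGF5 NPC, and for H2AK119ub1 this held at Esrrb and Prdm14 but not at Klf2. The 10 genes together had 9913 bp of H3K27me3 in 11 promoter peaks in wild type NPC and 3749 bp in 8 peaks in shPCGF5 NPC, beside 1340 bp in wild type ES and 1652 bp in shPCGF5 ES. All 6 genes marked in wild type NPC had fewer bp in shPCGF5 NPC. That direction was common, since 76.7% of the 3480 genes marked in wild type NPC had fewer bp as well, and 62.6% of the 4266 genes marked in either NPC list. In the 4 genes marked in both NPC lists the shPCGF5 value was at the median 36.7% of the wild type value, while over all 2648 genes marked in both it was 78.7%. Of the 3480 genes, 24.4% had a lower ratio than Klf2, 30.9% than Prdm14, 36.6% than Klf4 and 54.7% than Esrrb. These shares include the 23.9% of genes without a peak in shPCGF5 NPC. The shPCGF5 NPC list of this mark was the longer one, with 14759 peaks against 11371, but it covered less, with 8.18 Mb against 9.67 Mb. Both NPC lists covered more of the genome than the ES lists, which held 4.31 Mb in wild type and 3.84 Mb in shPCGF5. A rise in covered bp from ES to NPC was thus also seen genome-wide, although these totals count all peaks and not promoters. In wild type the totals rose by a smaller factor than the bp at these genes, and in shPCGF5 by a similar one. The covered H2AK119ub1 fell from 2042 bp in 8 peaks to 1078 bp in 3 peaks, beside 212 bp in wild type ES and 154 bp in shPCGF5 ES. Its shPCGF5 NPC list was also the shorter one, with 3845 peaks against 5754. With 3845 top-scoring peaks in each list the order of the counts turned, with H2AK119ub1 at 2 factors in wild type NPC and 3 in shPCGF5 NPC, and at 818 and 928 of all genes. The covered bp then still fell at Esrrb (by 79 bp) and Prdm14 (by 530 bp), were 222 bp higher in shPCGF5 NPC at Klf2 and were 0 in both lists at Klf4.

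Genome-wide, a peak gained in NPC of one genotype was often not listed in the other. Of the 1029 genes with H3K27me3 in wild type NPC and in neither ES list, 55.4% had no peak in shPCGF5 NPC, against 2 of the 5 factors (40.0%). In reverse, of the 821 genes with H3K27me3 in shPCGF5 NPC and in neither ES list, 44.1% had no peak in wild type NPC, against 0 of 3 factors. Of the 3480 genes with H3K27me3 in wild type NPC whatever their state in ES, 23.9% had none in shPCGF5 NPC, and of the 6 factors 33.3%. In reverse it was 22.9% of the 3434 genes marked in shPCGF5 NPC and 0 of 4 factors. For H2AK119ub1 49.3% of the 1108 genes marked in wild type NPC had none in shPCGF5 NPC, and of the 4 factors 1 (25.0%). In reverse it was 39.4% of 928 genes and 0 of 3 factors. Each of these shares of the factors rests on 3 to 6 genes.

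**Figure D3:**
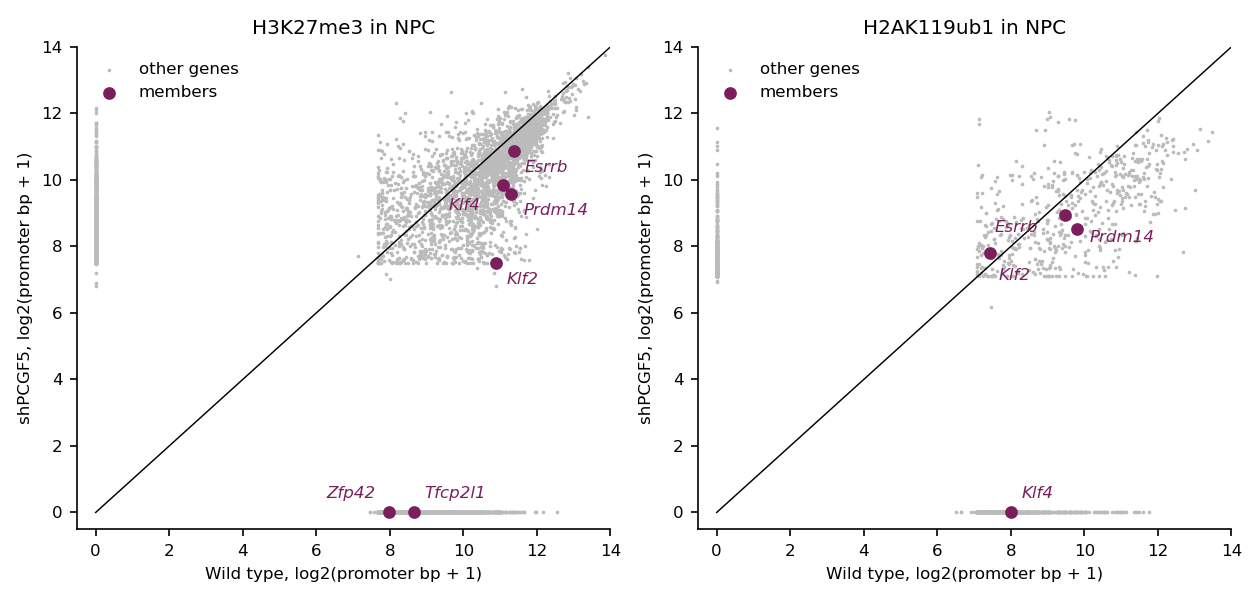
Promoter bp covered in wild type NPC (x axis) and shPCGF5 NPC (y axis), both as log2(bp + 1), for H3K27me3 (left) and H2AK119ub1 (right). Each point is a gene with a promoter peak in at least 1 of both lists, the line marks equal values, and all 6 factors in the left panel and 3 of 4 in the right panel lie under it.

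Klf2 and Klf4 encode Krüppel-like zinc finger factors that bind GC-rich sites and act downstream of LIF and of MEK inhibition. No ES list had a peak at Klf2. In wild type NPC a single H3K27me3 peak of 1899 bp (chr8:74842978-74844876) ran over most of the gene, with a fold enrichment of 12.0 over background, above 99.1% of the peaks of that list by score. In shPCGF5 NPC the peak had 181 bp (chr8:74843611-74843791), which is 9.53% of the wild type bp. Its fold was 4.73 and its score percentile in its own list 77.6. Folds, here and below, compare peaks only within a list. The covered bp of H2AK119ub1 went the other way, with 172 bp in wild type NPC (fold 3.10) and 222 bp in shPCGF5 NPC (fold 3.54). Both H2AK119ub1 peaks were among the weakest of their lists, at the score percentiles 5.70 and 7.07, and overlapped each other in the coding exon shown above.

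Klf4 likewise had no peak in either ES cell type. In wild type NPC it carried 3 H3K27me3 peaks, of 1422 bp (chr4:55543398-55544819, fold 7.80), 383 bp (chr4:55544968-55545350, fold 5.08) and 351 bp (chr4:55546150-55546500, fold 4.43), the last with its centre 978 bp before the first start site. They added up to 2156 bp within the promoter windows. In shPCGF5 NPC 3 shorter peaks of 198, 196 and 531 bp, with folds of 3.37, 3.92 and 4.01, lay behind the first start site and covered 925 bp, or 42.9% of the wild type value. No shPCGF5 peak touched the first start site or the region before it. The only H2AK119ub1 peak of Klf4, 258 bp in an intron of wild type NPC (chr4:55544085-55544342, fold 3.68, score percentile 19.7), lay under the widest H3K27me3 peak.

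Prdm14, which encodes a PR domain protein that holds down DNA methyltransferases and the epiblast programme in ES cells, had the most promoter peaks of the 10 genes in wild type NPC. H3K27me3 formed 3 promoter peaks there, of 1305 bp (fold 4.20), 1004 bp over the start site (chr1:13117127-13118130, fold 11.2, score percentile 98.7) and 206 bp (fold 4.80), 2515 bp in all. In shPCGF5 NPC 2 peaks of 317 bp (fold 4.51) and 451 bp (fold 6.90, score percentile 91.5) were left, 768 bp in all and 30.5% of the wild type bp. H2AK119ub1 formed 4 peaks in wild type NPC, of 146, 240, 225 and 285 bp, and 1 peak of 366 bp in shPCGF5 NPC. The covered bp of that mark were 896 and 366. All 4 wild type H2AK119ub1 peaks overlapped H3K27me3 of the same cells.

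Prdm14 was also the only one of the 10 genes with a Flag-PCGF5 promoter peak in NPC, beside 13.7% of all genes. That peak (chr1:13114385-13115161, 777 bp, fold 2.36, score percentile 72.7) had its centre 2471 bp inside the gene, just within the window, so that 418 bp counted as promoter. It overlapped 2 H3K27me3 peaks of wild type NPC. In ES no factor had a Flag-PCGF5 promoter peak (0.787% of all genes), in a list of 653 peaks against 12013 in NPC.

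Esrrb, an orphan nuclear receptor that is a target of GSK3 inhibition in ES cells, was the only factor with H3K27me3 in all 4 lists of that mark. The marks were not at its first start site but at a pair of internal start sites, at 87762594 and 87762833 of chromosome 12. Wild type ES had 3 H3K27me3 promoter peaks there, with folds from 5.36 to 5.63 and 1340 bp in all, and shPCGF5 ES had 4, with 1652 bp. In wild type NPC a peak of 2308 bp (chr12:87762576-87764883, fold 5.68) took their place, and a peak of 378 bp at the last start site (fold 2.76) ranked above only 0.800% of its list. Together they covered 2686 bp, and 1875 bp were covered in shPCGF5 NPC, or 69.8% of the wild type value.

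H2AK119ub1 at Esrrb covered 212 bp in wild type ES, 0 bp in shPCGF5 ES, 716 bp in wild type NPC and 490 bp in shPCGF5 NPC. The ES peak had a fold of 4.30, and the wider of both wild type NPC peaks (569 bp) a fold of 6.19. The shPCGF5 NPC peak had a fold of 6.40. The order of the values for this gene changed with the window, and with 1000 bp in place of 2500 bp the difference of shPCGF5 minus wild type NPC was 343 bp in place of -226 bp.

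**Figure D4:**
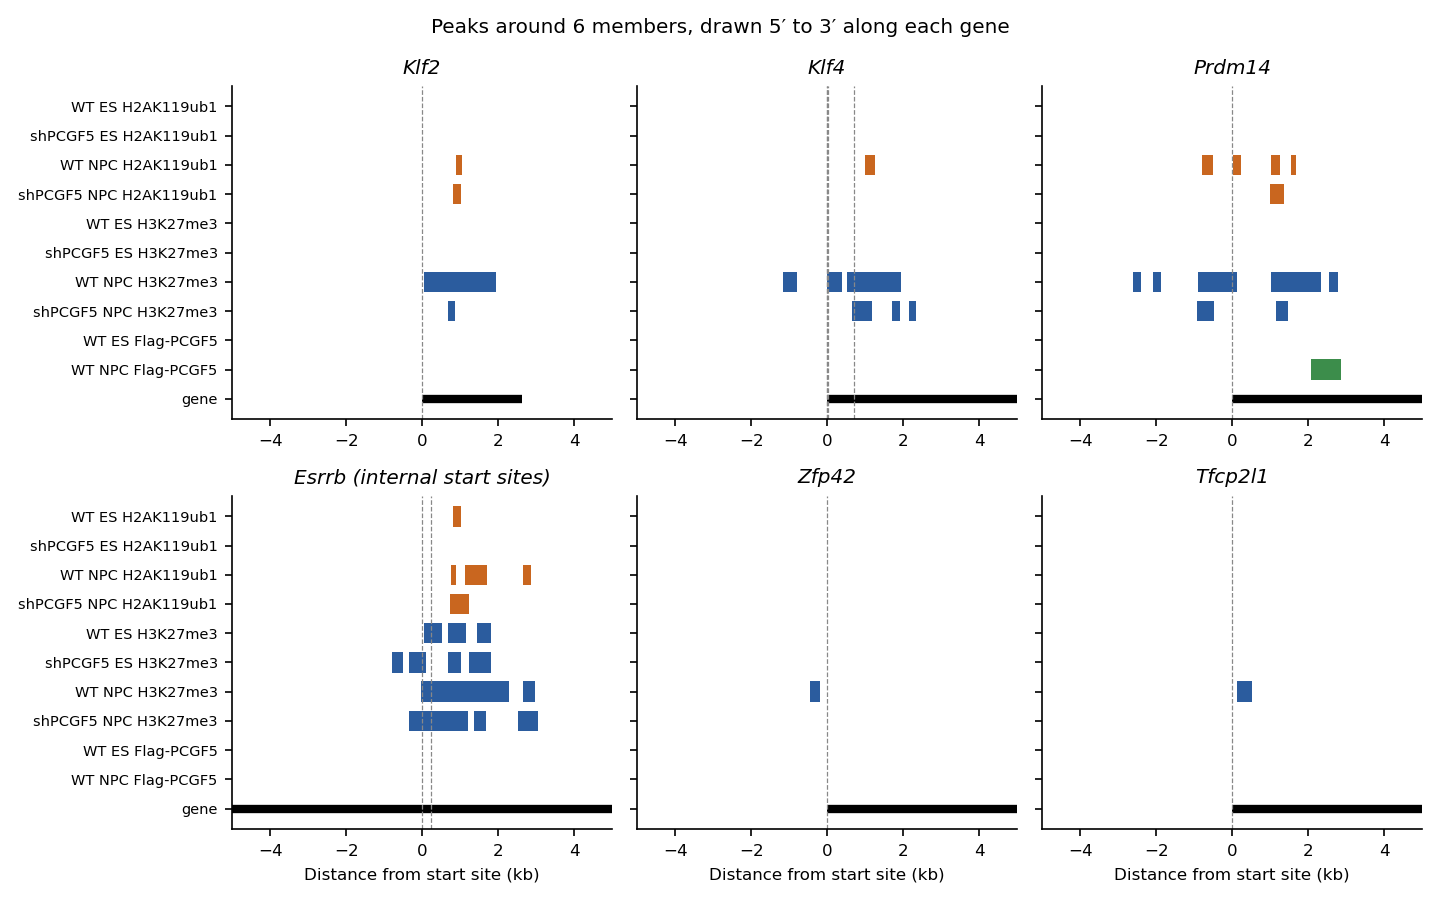
Peaks of the 10 lists (rows; orange H2AK119ub1, blue H3K27me3, green Flag-PCGF5) around 6 genes, against the distance from the first start site in kb, or for Esrrb from the first of both internal start sites, with dashed lines at start sites and a black bar for the gene. Klf2, Klf4 and Prdm14 have wide H3K27me3 peaks in wild type NPC and short ones in shPCGF5 NPC, while at Esrrb peaks of all 4 H3K27me3 lists lie over the internal start sites and the intron behind them.

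Zfp42 (also known as Rex1) encodes a zinc finger protein that serves as a marker of the naive state, and Tfcp2l1 a factor of the grainyhead family that acts downstream of LIF. Each had a single promoter peak over all 10 lists. At Zfp42 it was an H3K27me3 peak of 253 bp in wild type NPC, with a fold of 6.99 and a score percentile of 74.7, centred 325 bp before the start site. At Tfcp2l1 it was an H3K27me3 peak of 404 bp (chr1:120524640-120525043) in wild type NPC, with a fold of 4.45 and a score percentile of 27.1. When only the upper 50% of each list by score was kept, the Tfcp2l1 peak was lost, and 1 gene in place of 2 differed between the NPC genotypes.

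The Zfp42 peak surrounds the run of 42 bases of alternating t and g shown above, and 3 of the Prdm14 peaks (H2AK119ub1 and H3K27me3 of wild type NPC, H3K27me3 of shPCGF5 NPC) surround the run of 57 bases. Runs of at least 20 bases of this kind, read on both strands as TG or CA repeats, were in 14.4% of the H3K27me3 peaks of wild type NPC and in 12.5% of those of shPCGF5 NPC. In the ES lists of this mark they were in 3.57% (wild type) and 4.45% (shPCGF5) of the peaks. For H2AK119ub1 the shares were 16.2% and 10.0% in wild type and shPCGF5 NPC, and 3.69% and 7.29% in wild type and shPCGF5 ES. A larger share of NPC peaks than of ES peaks thus held such repeats, but wider peaks can hold a run more easily. The median H3K27me3 peak had 453 and 360 bp in wild type and shPCGF5 NPC, against 266 and 298 bp in ES. For H2AK119ub1 it had 265 and 216 bp, against 217 and 222 bp. The shares were not adjusted for width, and the part of the repeats in the peaks at Zfp42 and Prdm14 was not tested. No promoter peak of Klf2, Klf4, Esrrb or Tfcp2l1 held a run of 20 bases.

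Dppa3 (Stella), which protects DNA methylation in the zygote and is a marker of naive and germ cells, had 1 promoter peak. It was an H2AK119ub1 peak of 154 bp (chr6:122574227-122574380, fold 6.07, score percentile 93.7) in shPCGF5 ES, centred 2125 bp before the start site. With a window of 1000 bp it was not counted. No promoter peak was listed at Dppa3 in NPC.

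Pou5f1, Nanog and Sox2, the core factors, had no promoter peak and no gene body peak of H2AK119ub1, H3K27me3 or Flag-PCGF5 in any of the 10 lists. A promoter peak was lacking in all 10 lists at 14713 other genes (66.2% of all genes), so that the state of the core factors was the usual one. The promoter windows spanned 8349 bp at Pou5f1, 5105 bp at Nanog and 5132 bp at Sox2, where a gene with a single start site has 5001 bp.

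Counts of peaks over the gene body were similar, but they mostly rest on the same peaks as the promoter counts. At Klf2, for one, the same 1899 bp of H3K27me3 in wild type NPC entered both. They are thus no separate account. For H3K27me3 5 genes had one in wild type NPC, Klf2, Klf4, Esrrb, Prdm14 and Tfcp2l1 (16.2% of all genes), and 4 in shPCGF5 NPC (15.7%), against Esrrb alone in wild type ES (16.0%) and in shPCGF5 ES (14.7%). For H2AK119ub1 the counts were 4 in wild type NPC (5.29% of all genes), 3 in shPCGF5 NPC (5.34%), 1 in wild type ES (9.95%) and 1 in shPCGF5 ES (8.87%). Esrrb, the longest of the 10 genes with 160512 bp, was the one marked in all ES cases, and in shPCGF5 ES its 2 H2AK119ub1 peaks lay in introns far from the start sites. Flag-PCGF5 had a peak in the body of Prdm14 in NPC (21.0% of all genes) and of Zfp42 in ES (1.39% of all genes). The latter was 193 bp wide (chr8:44385486-44385678, intron, fold 6.32), and no peak of any other list overlapped it.

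The 6 genes with H3K27me3 in wild type NPC did not share 1 kind of start site. The observed over expected CpG ratio within 500 bp of the start site of the longest coding transcript was 0.960 at Klf4, 0.713 at Klf2, 0.661 at Esrrb, 0.584 at Tfcp2l1, 0.504 at Prdm14 and 0.487 at Zfp42. Among the 4 genes without the mark it was 0.841 at Sox2, 0.443 at Dppa3, 0.335 at Pou5f1 and 0.309 at Nanog. The median was 0.676 over all genes with H3K27me3 in wild type NPC and 0.488 over those without. Apart from Sox2, then, the factors without a peak had lower ratios than every factor with one. At Esrrb the first start site, without a promoter peak, had a ratio of 0.283, and the marked internal ones 0.661 and 0.733.

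**Figure D5:**
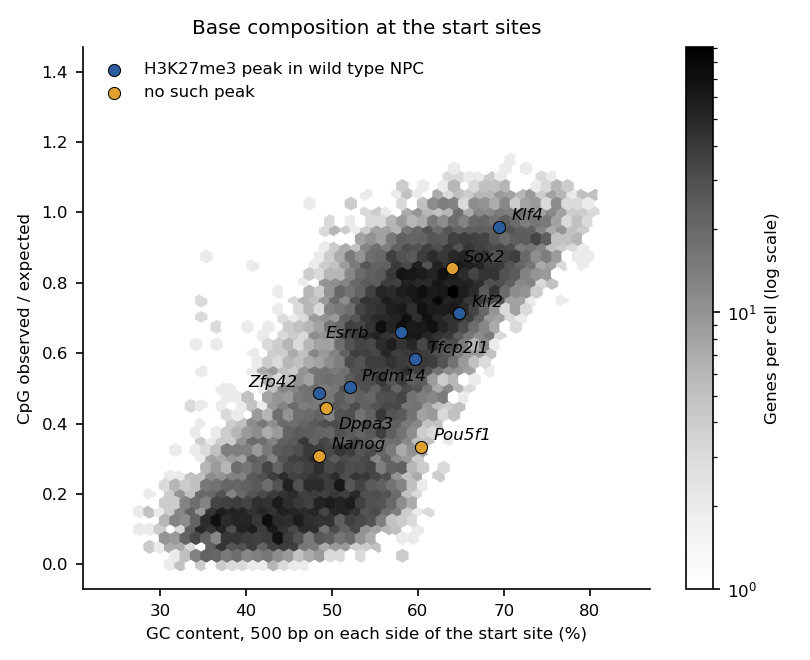
GC content in percent (x axis) and observed over expected CpG ratio (y axis) within 500 bp of the start site for all 22232 protein-coding genes (grey cells, genes per cell on a log scale) and the 10 factors (points). Blue points, with an H3K27me3 promoter peak in wild type NPC, span ratios from 0.487 to 0.960, and of the orange points without one only Sox2 lies above 0.443.

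The combination of lists with a promoter peak set the factors apart to different degrees. The combination of Prdm14 was shared by 3 other genes, that of Klf2 by 11, Esrrb by 34, Klf4 by 50 and Dppa3 by 115. Zfp42 and Tfcp2l1, with H3K27me3 in wild type NPC alone, each shared theirs with 352 other genes, each other included (1.58% of all genes). Among 24 other pluripotency genes and 10 formative and epiblast genes the same combination as Klf2 was found at Tbx3, a T-box factor of the naive network. That of Zfp42 and Tfcp2l1 was found at Utf1, Tdgf1, L1td1 and Dnmt3a.

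By the sum over the 10 lists of the absolute differences in log2(promoter bp + 1), the genes closest to Klf4 were Adamts9 (0.543), Tnik (0.709) and Bcl6 (1.05). The closest to Klf2 were Chn2 (2.73), Vnn1 (2.83) and Socs3 (4.23), and the closest to Esrrb were Gabbr2 (1.97), Hoxd1 (2.80) and Trhde (3.17). Prdm14 had the most distant neighbours, Grin1 (3.40), Nkx2-6 (3.42) and Grik3 (6.02). Lower sums mean more alike coverage, and the sums are descriptions over 10 lists.

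The 24 other pluripotency genes showed the H3K27me3 stage pattern in wild type cells but not in shPCGF5 cells. Of these 24 genes 9 had an H3K27me3 promoter peak in wild type NPC (15.7% of all genes) and 2 in shPCGF5 NPC (15.4%). The latter 2 were Tbx3 and Gbx2, and Gbx2 was named after its values were seen. In wild type ES it was 1 (13.4% of all genes) and in shPCGF5 ES 2 (12.9%). Of the 8 that had the mark in wild type NPC and in neither ES list, 7 had no peak in shPCGF5 NPC (87.5%), beside 2 of the 5 factors (40.0%) and 55.4% of all such genes. H2AK119ub1 was at 4 of the 24 genes in wild type NPC (4.98% of all genes) and 2 in shPCGF5 NPC (4.17%). It was at 1 in wild type ES (6.69%) and 1 in shPCGF5 ES (5.96%). Flag-PCGF5 was at 3 in NPC (13.7% of all genes) and 0 in ES (0.787%).

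Peak lists hold no expression, so within these data the cell identities could be read only from the marks. The paper measured identity with the Sox1 reporter and, in Pcgf5 knockout cells, with RNA, protein and staining of marker genes. For the knockout cells it reports OCT4 and NANOG, the products of Pou5f1 and Nanog, as still high after neural differentiation. For the reporter it gives a smaller percentage of positive cells in PCGF5-deficient than in wild type cultures after neural differentiation. The percentage in the cultures used for the peak lists is not given. Sox1, the gene of the reporter, was not matched in the annotation. Of 11 other neural precursor markers 8 had an H3K27me3 promoter peak in wild type ES and 8 in shPCGF5 ES. In NPC it was 8 in wild type and 10 in shPCGF5 cells. The shares of all genes in this order were 13.4%, 12.9%, 15.7% and 15.4%. With H2AK119ub1 the counts were 7, 7, 4 and 9 in the same order (6.69%, 5.96%, 4.98% and 4.17% of all genes). Of 10 fibroblast genes 5 had H3K27me3 in wild type ES and 8 in shPCGF5 ES, and of 10 mesoderm and endoderm genes 9 and 7 (13.4% and 12.9% of all genes). With H2AK119ub1 the fibroblast counts were 2 and 2, and the mesoderm and endoderm counts 5 and 7 (6.69% and 5.96% of all genes). In wild type and shPCGF5 NPC the fibroblast counts were 6 and 7 with H3K27me3, and 5 and 4 with H2AK119ub1. The mesoderm and endoderm counts in NPC were 9 and 9 with H3K27me3, and 8 and 6 with H2AK119ub1. The share of feeder chromatin in the ES libraries is unknown, and its part in the ES values was not tested.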

How the data were processed

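Peak lists of 10 ChIP-seq libraries were analysed, 1 library in each group, and groups were taken from the labels. According to the methods the authors trimmed reads with Trimmomatic, used Bowtie2 for alignment to mm9, Picard to drop duplicate reads and MACS2 2.1.0 for peaks, library by library. Histone lists came from chromatin digested with micrococcal nuclease, and Flag-PCGF5 lists from sonicated chromatin and were filtered by q-value. The spike-in used to scale signal does not enter the lists. The deposited score is 10 times −log10 p in the histone lists and 10 times −log10 q in the Flag-PCGF5 lists, rounded down. The deposited fold is the enrichment over background given by the authors' peak caller, and the deposited −log10 p-values and −log10 q-values come from the same program. These values compare peaks only within a list. The list lengths depend on depth, which is unknown.

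Windows of 2500 bp around start sites of protein-coding transcripts, peak numbers and covered bp were computed from GENCODE M1 in Python 3.11.15 with pandas 2.3.3 and checked with bedtools 2.31.1, where 0 of 10 lists differed. The code was tested on simulated data. All 86279 peaks lay within the assembly. Tfcp2l1 is called Tcfcp2l1 in the annotation, and 75 of 76 members and context genes were found. Percentages of all genes serve as background. The members and the lists of context genes were chosen with earlier results of these data known. All 10 members are named, and a context gene is named where its pattern over the 10 lists equals that of a member with a promoter peak. The 7 alternatives were the overlap rule, windows of 1000 and 5000 bp, the higher-scoring 50%, a −log10 q of at least 2, equal list lengths and merging of peaks within 1000 bp.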

Additional observations from a re-analysis of the deposited data

Results flagged for a closer look

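At Esrrb the H3K27me3 promoter bp moved in opposite directions between the genotypes at the 2 stages. The value of shPCGF5 minus wild type was 312 bp in ES (1652 against 1340 bp) and -811 bp in NPC (1875 against 2686 bp). With 1 library in each group this contrast of stages could not be tested. The shPCGF5 list was the shorter one in ES, with 10234 against 11808 peaks, and the longer one in NPC, with 14759 against 11371 peaks.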

How the results depend on the processing

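The number of factors with an H3K27me3 promoter peak was 6 in wild type NPC and 4 in shPCGF5 NPC under every alternative but the higher-scoring 50% of each list, which gave 5 and 4 and lowered the genes with H3K27me3 in wild type NPC only of the NPC lists from 2 to 1. The H2AK119ub1 counts moved more. In the higher-scoring 50% the promoter counts were 0 in wild type ES, 2 in wild type NPC and 1 in shPCGF5 NPC, the gene body counts 0, 0, 2 and 1 in wild type ES, shPCGF5 ES, wild type NPC and shPCGF5 NPC, and 2 genes had more bp in wild type NPC than in wild type ES. With equal list lengths (3845 top-scoring peaks) the promoter counts were 0 in wild type ES, 2 in wild type NPC and 3 in shPCGF5 NPC, so that the order of the NPC genotypes turned, the gene body counts 0, 0, 2 and 3 in wild type ES, shPCGF5 ES, wild type NPC and shPCGF5 NPC, 2 genes had more bp in wild type NPC than in wild type ES, and 0 genes had a peak in wild type NPC and not in shPCGF5 NPC. With a window of 1000 bp the promoter count of shPCGF5 ES was 0, and 2 genes had H2AK119ub1 in wild type NPC and not in shPCGF5 NPC. With 5000 bp the H3K27me3 count of shPCGF5 ES was 2. The Flag-PCGF5 promoter peak of Prdm14 in NPC was not counted (0) with a window of 1000 bp or in the 653 top-scoring peaks, and its gene body count was 0 in the latter. For Esrrb, H2AK119ub1 bp reversed with a window of 1000 bp, to 343 bp for shPCGF5 minus wild type NPC and to -65 bp for wild type NPC minus wild type ES. Each alternative uses fewer or more peaks, or another window, by construction. The remaining 154 counts stayed within the limits set for them, as did 214 values of single genes, while 64 values of single genes moved. Counts within the limits were not all unchanged. With a −log10 q of at least 2, H2AK119ub1 was at 3 factors in wild type NPC and 2 in shPCGF5 NPC. With a window of 1000 bp it was at 2 in shPCGF5 NPC. No paired analysis was possible because each group holds 1 library. Depth is unknown, so weak peaks, such as those of H2AK119ub1 at Klf2, may or may not be listed with more reads.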

Other observations

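Within 50 kb of the 10 genes and outside the promoter windows and gene bodies, the H3K27me3 lists held 3 peaks in wild type ES, 11 in shPCGF5 ES, 5 in wild type NPC and 8 in shPCGF5 NPC, and the H2AK119ub1 lists 2, 4, 0 and 1 in the same order. At Pou5f1 lay 2, 4, 1 and 4 of these H3K27me3 peaks in that order, and 2 and 1 of the H2AK119ub1 peaks in shPCGF5 ES and shPCGF5 NPC. The coding gene with the start site nearest to each of them was H2-Q10, not Pou5f1. The same zone was not counted for all genes. Flag-PCGF5 had 0 in ES and 6 in NPC.

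Nanog had its only histone peak within 50 kb in shPCGF5 ES, an H3K27me3 peak of 222 bp (chr6:122646148-122646369) centred 11249 bp before the first start site, with a fold of 10.1 and a score percentile of 98.6. No peak of another list overlapped it.

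Dppa3 had 3 H3K27me3 peaks in shPCGF5 ES between 3008 and 4166 bp before the start site, of 208, 243 and 636 bp, and an H2AK119ub1 peak of 301 bp among them. None of these regions had a peak in wild type ES. Farther away, between 5449 and 5491 bp from the start site of Gdf3, H2AK119ub1 and H3K27me3 peaks were listed in wild type and shPCGF5 ES, with 510 and 464 bp in wild type and 488 and 442 bp in shPCGF5 cells. In shPCGF5 NPC an H3K27me3 peak of 497 bp lay there too (chr6:122565324-122565820, fold 2.88), and wild type NPC had none.

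Sox2 had an H3K27me3 peak of 258 bp centred 7667 bp before the start site in wild type NPC (fold 4.00) and another of 180 bp centred 12667 bp behind a start site in shPCGF5 NPC (fold 3.34). The peaks were different ones, and both ranked low in their lists, at the score percentiles 18.2 and 8.73.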
